A study of Mus musculus with 6 samples.

Results

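Granzymes and perforin are the effector proteins that cytotoxic lymphocytes keep in secretory granules. The 8 genes described here are Gzma, Gzmb, Gzmc, Gzmd, Gzme, Gzmf, Gzmk and Prf1. They were chosen by name from 31253 annotated features, with earlier results of these data known. Their levels were read in NK, ILC1-like, CD8 T, CD4 T, regulatory T and NKT cells of mouse liver. These cells were drawn by marker rules (gates) that use none of the 8 genes. The data are single-cell RNA libraries (BD Rhapsody, a microwell system, whole transcriptome) of whole-liver suspensions, 6 in all, in 3 groups of 2: control, pre-metastatic and macro-metastatic. The pre-metastatic and macro-metastatic libraries are labelled as coming from an orthotopic mouse model of colorectal cancer, in which tumour cells are placed in the organ they derive from, and the controls as ctrl with no further treatment named. The study asked how the cells of the liver change while colorectal cancer spreads to it. CT26-GFP, a GFP-marked line of the mouse colon carcinoma CT26, is given as the cell line for all 6 libraries, the controls included, and the mouse strain, age, sex and the day of collection are not stated in the labels. Livers were digested with Collagenase II, and erythrocytes and dead cells were removed, so all values describe cells that survived these steps. Nothing in the labels says that the 2 libraries of a group came from different mice, so each p-value below measures only the spread between these libraries.

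Cytotoxic lymphocytes kill by releasing granules onto a target cell. Perforin, encoded by Prf1, forms pores in the target's membrane, and granzymes, serine proteases, pass through and cleave proteins inside. Granzyme B cuts after aspartate and activates caspases. Granzymes A and K cut after basic residues, and their genes lie side by side. Gzmc, Gzmd, Gzme and Gzmf are members of a rodent expansion beside Gzmb, known mainly from mouse T cells and NK cells after long or strong activation. In the liver, NK cells and ILC1 are both present at rest, and killing by CD8 T cells depends on prior activation.

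Gzmb and Gzmc to Gzmf lie on the minus strand of chromosome 14, Gzma and Gzmk on the minus strand of chromosome 13, and Prf1 on the plus strand of chromosome 10 (GENCODE M21 on GRCm38, mm10). Gzmd, Gzme and Gzmf share sequence, which bears on whether their reads can be told apart, so the last 90 coding bases of each are shown, 5′ to 3′ on the gene's own strand, with capitals where a base differs from Gzmf. They are exonic and end with the stop codon, next to the 3′ region from which counts of this kind are mostly drawn. Gzmb and Gzmc, at chr14:56259419-56259508 and chr14:56231514-56231603, are shown for contrast. The windows of Gzmf, Gzmd and Gzme are chr14:56205375-56205464, chr14:56129675-56129764 and chr14:56117726-56117815.
Gzmf: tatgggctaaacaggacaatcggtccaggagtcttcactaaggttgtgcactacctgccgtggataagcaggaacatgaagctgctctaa
Gzmd: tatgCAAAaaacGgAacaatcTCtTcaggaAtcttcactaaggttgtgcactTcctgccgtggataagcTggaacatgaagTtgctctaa
Gzme: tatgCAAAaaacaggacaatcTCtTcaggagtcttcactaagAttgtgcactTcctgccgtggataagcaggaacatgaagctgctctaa
Gzmc: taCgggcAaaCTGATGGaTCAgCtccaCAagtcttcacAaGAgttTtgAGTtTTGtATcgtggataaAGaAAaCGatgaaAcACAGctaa
Gzmb: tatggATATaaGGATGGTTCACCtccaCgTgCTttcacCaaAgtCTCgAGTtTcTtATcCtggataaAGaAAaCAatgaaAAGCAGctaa
Of these 90 bases, Gzme differed from Gzmf at 9, Gzmd at 13, Gzmc at 38 and Gzmb at 45. Over the whole coding sequence the identity was 93.3% between Gzmd and Gzme, 84.9% between Gzme and Gzmf, 83.4% between Gzmd and Gzmf and 75.7% between Gzmb and Gzmc. Of the 31-base words in the last 500 bases of the transcript, 45.5% in Gzme, 37.7% in Gzmd, 21.1% in Gzmf and 4.04% in Gzmc also occurred in another gene, and none did in Gzma, Gzmb, Gzmk or Prf1. How the submitters counted reads that match several genes is not given in the sources used here, so the split of UMIs among Gzmd, Gzme and Gzmf is uncertain, and their sum is given where it matters.

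The promoters of these 3 genes are shown because UMIs of all 3 were found in the same libraries. Each window covers the 150 bases before the RefSeq start (GRCm38.p6, minus strand), at chr14:56132594-56132743 for Gzmd, chr14:56120626-56120775 for Gzme and chr14:56211408-56211557 for Gzmf. Capitals mark TGTGGT, the core of the Runx motif.
Gzmd promoter: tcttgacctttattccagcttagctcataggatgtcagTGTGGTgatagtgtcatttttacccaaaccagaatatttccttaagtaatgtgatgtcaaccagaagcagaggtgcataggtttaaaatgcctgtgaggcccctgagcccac
Gzme promoter: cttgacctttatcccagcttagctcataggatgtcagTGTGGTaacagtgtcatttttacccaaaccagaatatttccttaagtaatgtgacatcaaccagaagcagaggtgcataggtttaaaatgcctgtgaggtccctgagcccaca
Gzmf promoter: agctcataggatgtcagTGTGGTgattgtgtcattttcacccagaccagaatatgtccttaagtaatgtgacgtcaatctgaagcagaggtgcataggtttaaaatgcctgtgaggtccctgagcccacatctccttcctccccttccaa
TGTGGT was searched on both strands and occurred 1 time in each of the 3 windows and in those of Gzma, Gzmc and Prf1, 2 times in that of Gzmb and 0 times in that of Gzmk, and it was present in 8.4% of 32851 RefSeq promoters of the same length. The other motifs searched on both strands were AGGTGTNA (T-box), TGANTCA (AP-1), GGAAGT (Ets) and the composite NFAT and AP-1 motif, present in 1.44%, 4.24%, 13.6% and 0.651% of all promoters. None of these 4 motifs was found in the windows of Gzmd, Gzme or Gzmf. A match in letters is a description and not a site.

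The 6 libraries held 71908 barcodes with 41914149 to 90819751 UMIs per library. Median UMIs per barcode were 4234 and 3302 in the macro-metastatic libraries, against 2412 to 2843 in the other 4. After filters and removal of predicted doublets 65470 cells were left, of which 12587 lay in clusters of T, NK and ILC class and 6178 fell into the 6 gates. The gates held 705 NK, 371 ILC1-like, 2037 CD8 T, 1761 CD4 T, 373 regulatory T and 931 NKT cells. The macro-metastatic libraries held few cells of some gates, with 18 and 85 NK cells, 21 and 39 ILC1-like cells, 24 and 57 regulatory T cells and 20 and 44 NKT cells. Library pairs shared 126 to 222 barcodes. Cd3d, Cd3e, Cd3g, Trac and Cd8b1 were at 0 in NK cells of all groups, Cd4 was at 0 in CD8 T cells, and Cd8a and Cd8b1 were at 0 in regulatory T cells. The rules use most of these genes. The NKT rule leaves out cells with any Ncr1 or Eomes UMI and accepts any UMI of Zbtb16, Klrb1c or Trav11. NKT values below hold only for cells that this rule admits. Markers of neutrophils were highest in both macro-metastatic libraries in every gate: over a list of 10, with levels in CPM as defined in the next paragraph, the sum in CD8 T cells was 5.28 and 3.4 CPM among controls, 182.8 and 54.9 among pre-metastatic and 893.6 and 468.2 among macro-metastatic libraries, with 5, 9 and 10 of the 10 detected. The list of 9 Kupffer cell markers was likewise highest in both macro-metastatic libraries in every gate, with 72.6 and 85.1, 136.0 and 166.6, and 404.1 and 367.9 CPM in CD8 T cells and 8, 8 and 9 of the 9 detected. The list of 7 hepatocyte markers ran the other way in the same cells, with 939.4 and 360.9, 191.3 and 208.2, and 46.7 and 71.2 CPM. Their part in the differences below was not tested.

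Most UMIs of the classical members lay in lymphocytes. The 6 gates held 49.5% of all Gzma UMIs, 36.4% of Gzmb, 50.2% of Prf1 and 64.3% of Gzmk, and T, NK and ILC cells that met no gate held a further 41.2%, 46.6%, 39.4% and 25.6%. Levels are given in CPM, the usual scaled share of a gene in all UMIs summed over the cells of a gate in a library. In such a sum, fewer expressing cells and less RNA per cell cannot be told apart, so the share of cells with at least 1 UMI is added where it helps. B cells, which should lack these genes, give the background: of 3596 B cells with a median of 1546 UMIs (2016 in CD8 T and 1547 in NK cells), 0.973% had a Gzma UMI (95% Wilson interval 0.701 to 1.35), 0.918% a Gzmb UMI and 0.584% a Prf1 UMI, at 33.5, 25.1 and 6.38 CPM. All intervals cover counting error only.

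**Figure D1:**
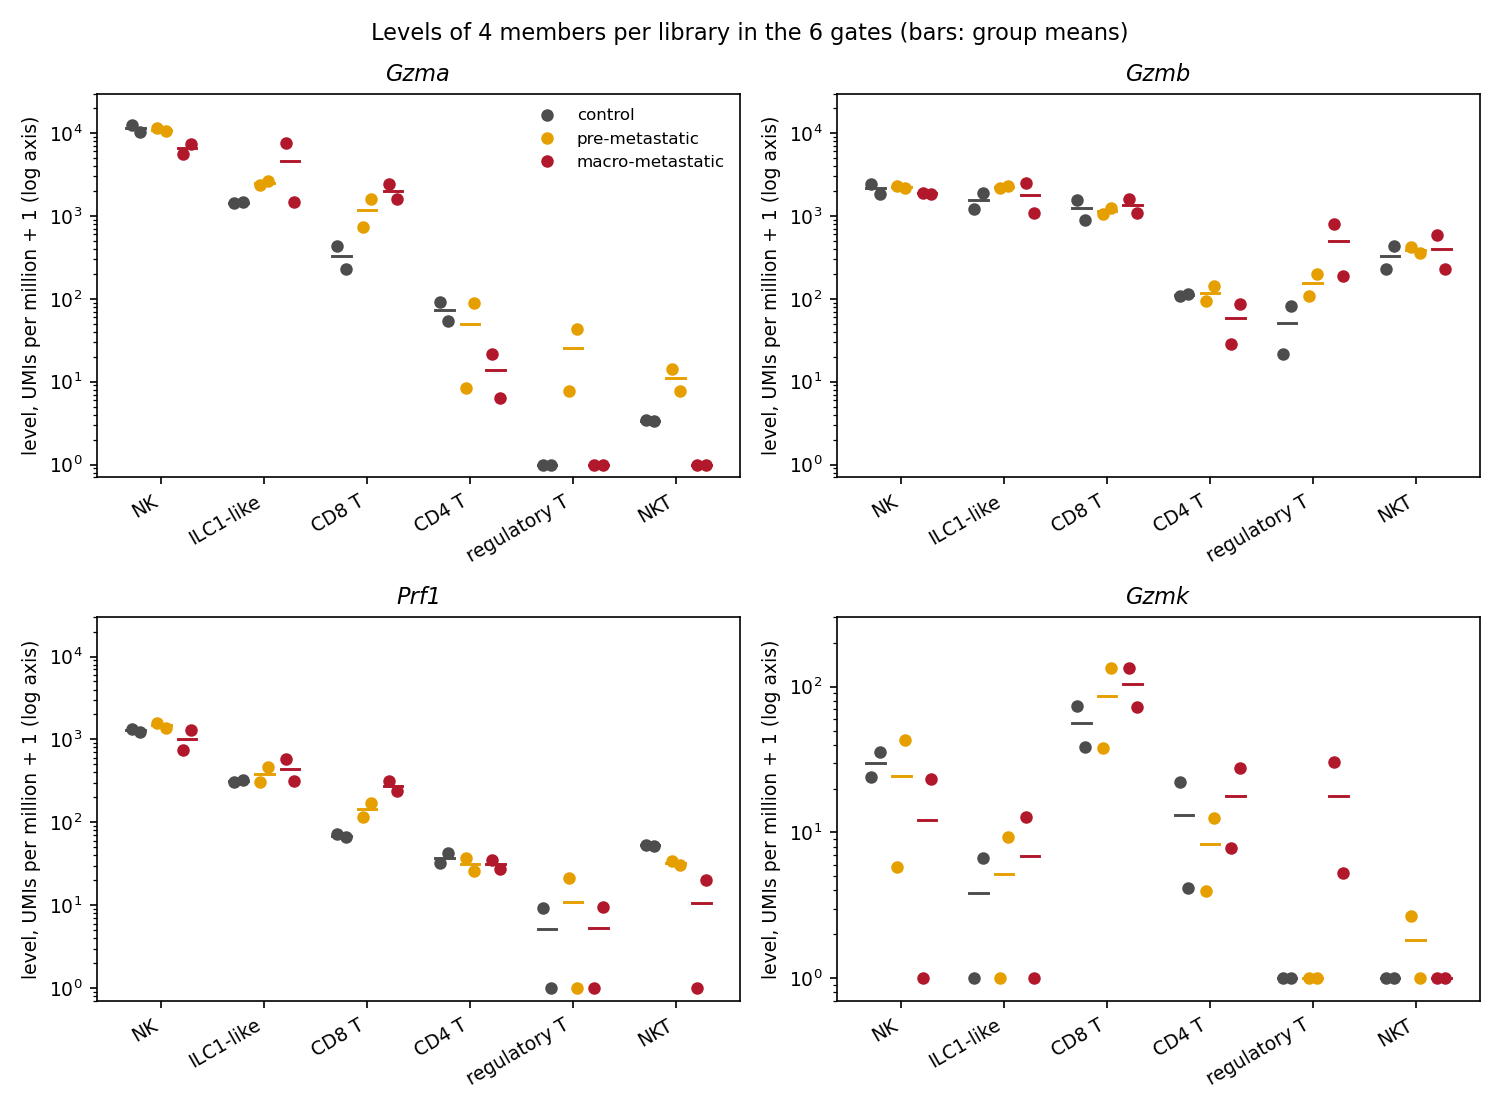
Level of Gzma, Gzmb, Prf1 and Gzmk (CPM plus 1, log axis) in each of the 6 gates, with 1 point per library and a bar at each group's mean; Gzmk has its own axis range. NK cells lie highest for Gzma and Prf1, between 5630 and 12612 CPM for Gzma, and in CD8 T cells Gzma and Prf1 stand higher in both macro-metastatic libraries than in both controls.

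Perforin set the gates apart most regularly. Prf1 averaged 1261 ± 282.5 CPM in NK cells, 379.1 ± 114.0 in ILC1-like cells, 162.1 ± 98.6 in CD8 T cells, 32.5 ± 6.35 in CD4 T cells, 30.9 ± 19.9 in NKT cells and 6.16 ± 7.98 in regulatory T cells (SD over 6 libraries, n = 6 each). In 1 edgeR fit over all gates with the library as block, 14 of the 15 pairs of gates differed in Prf1 at an adjusted p under 0.05. CD4 T and NKT cells did not differ (NKT against CD4 T, log2 fold change 0.22 ± 0.39, adjusted p = 0.775). The regulatory T level was at that of B cells.

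Gzma, a tryptase, gave the widest range. It averaged 9642 ± 2613 CPM in NK cells, 2835 ± 2397 in ILC1-like cells, 1171 ± 845.8 in CD8 T cells and 44.1 ± 38.8 in CD4 T cells (SD, n = 6 each). Regulatory T and NKT cells had 8.15 ± 16.9 and 4.12 ± 5.11 CPM. These means lay below the B cell mean of 30.4 ± 36.2 CPM but within its range over libraries, 1.71 to 79.7. Of the 15 pairs of gates 13 differed in Gzma, and the neighbours at the low end did not: regulatory T against CD4 T cells had an adjusted p of 0.0773 and NKT against regulatory T cells one of 0.855. In NK cells 98% of cells carried a Gzma UMI, and this held at a common depth of 1000 UMIs per cell, where the share was 97.3%.

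Gzmb, whose protein activates caspases, was above the B cell level in all 6 gates on average. B cells had 22.5 ± 24.3 CPM over libraries, and at most 61.9. Its mean was 2085 ± 263.5 CPM in NK, 1857 ± 590.0 in ILC1-like and 1243 ± 290.1 in CD8 T cells, then 374.7 ± 134.8 in NKT, 231.1 ± 283.8 in regulatory T and 94.3 ± 37.8 in CD4 T cells (SD, n = 6 each). Of the 15 pairs 12 differed. ILC1-like against NK cells (log2 fold change -0.26 ± 0.24, adjusted p = 0.615), CD8 T against ILC1-like cells (-0.47 ± 0.24, adjusted p = 0.19) and regulatory T against CD4 T cells (0.73 ± 0.34, adjusted p = 0.121) did not pass. NKT cells as gated here, without any Ncr1 or Eomes UMI, held almost no Gzma. They had more Gzmb than CD4 T cells (log2 fold change 1.78 ± 0.29, adjusted p = 5.78e-06). Gzmk, the other tryptase, was mainly in CD8 T cells: 80.8 ± 43.5 CPM there, 21.2 ± 16.5 in NK cells and 12 ± 9.82 in CD4 T cells (SD, n = 6 each). ILC1-like and regulatory T cells gave 3 Gzmk UMIs each over all libraries and NKT cells 1.

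Set directly against NK cells, CD8 T cells were lower in all 3 members that this fit could test. The other 5, Gzmc, Gzmd, Gzme, Gzmf and Gzmk, had too few UMIs for its filter. The log2 fold change of CD8 T over NK cells was -3.33 ± 0.37 for Gzma (adjusted p = 1.08e-09), -3.08 ± 0.23 for Prf1 (adjusted p = 8.52e-15) and -0.73 ± 0.23 for Gzmb (adjusted p = 0.0154), in a comparison in which 27.2% of 5550 genes differed. The Gzmb call is the frail one: DESeq2 gave an adjusted p of 0.143, leaving out pre-metastatic library 1 gave 0.0894, leaving out pre-metastatic library 2 gave 0.0598, and with gates taken from sub-clusters the fold change was 0.04. ILC1-like cells were lower than NK cells in Gzma (log2 fold change -2.14 ± 0.36, adjusted p = 2.39e-05) and Prf1 (-1.86 ± 0.24, adjusted p = 1.15e-07), where 10% of genes differed. For the other pairs, the shares of genes that differed were 33.5% for CD4 T, 31.5% for regulatory T and 32.3% for NKT cells against NK cells. Against ILC1-like cells they were 18% for CD8 T, 25.4% for CD4 T, 27.3% for regulatory T and 16.7% for NKT cells. Against CD8 T cells they were 15.4% for CD4 T, 21.8% for regulatory T and 25.7% for NKT cells. Against CD4 T cells they were 24.7% for regulatory T and 21.9% for NKT cells, and NKT against regulatory T cells gave 32.7%. The members' 14, 12 and 13 of 15 pairs stand against these shares. NK and ILC1-like gates were split on Eomes, Cxcr6 and other markers, and 364 cells with equal evidence for both were left out.

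Between macro-metastatic and control libraries, the calls lay in 5 of the 6 gates, with 3 of the 7 calls in CD8 T cells. Of the 48 pairs of gate and member, 18 had enough UMIs to be tested, and 7 of these were called in macro-metastatic against control libraries (edgeR quasi-likelihood test, Benjamini-Hochberg adjusted p under 0.05), where 10.7% of all pairs of gate and gene were called. Between pre-metastatic and control libraries 1 was called, where 0.16% of all pairs were, and 5 had an unadjusted p under 0.05. Between macro-metastatic and pre-metastatic libraries 3 were called, where 7.05% of all pairs were. Gzmf passed the filter on low counts only because it was high in some groups, so it had to differ: it makes up 1 of the 7 calls, the 1 call and 1 of the 3 calls, and these counts support nothing by themselves. The 3 comparisons share libraries, so they are not independent. In pre-metastatic against control libraries no member was called outside CD8 T cells, where 0.104% of genes were called in NK, 0.122% in ILC1-like, 0.195% in CD4 T, 0.0245% in regulatory T and 0.0315% in NKT cells. In macro-metastatic against pre-metastatic libraries no member was called in ILC1-like, CD4 T, regulatory T or NKT cells, where 5.61%, 7.38%, 2.74% and 4.09% of genes were.

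**Figure D2:**
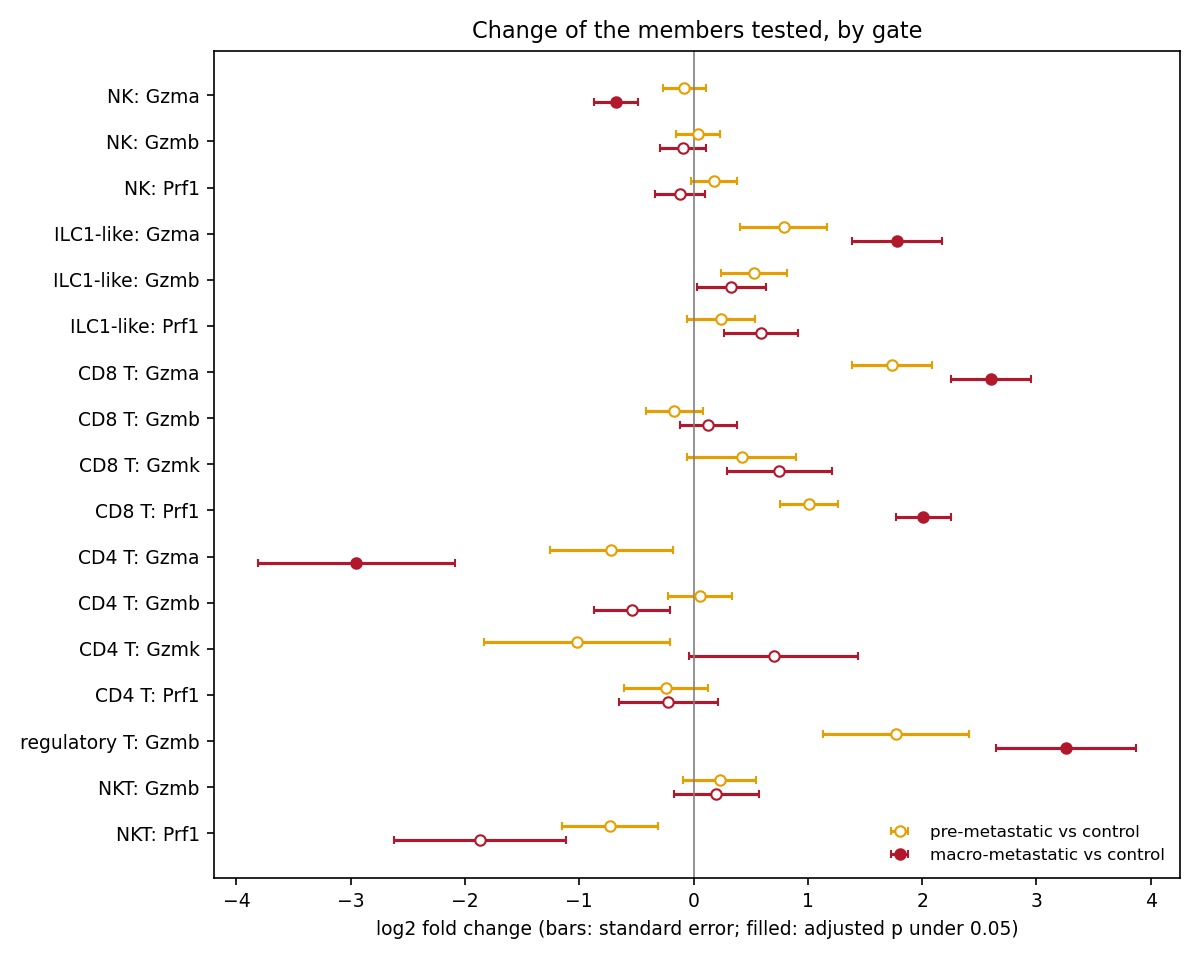
Log2 fold change of each member tested in each gate (x axis) against control, for pre-metastatic (orange) and macro-metastatic (red) libraries, with bars for the standard error and filled points where the adjusted p was under 0.05; Gzmf is not drawn because no control CD8 T cell held it. CD8 T cells have Gzma at 1.74 and 2.60 and Prf1 at 1.01 and 2.01, while Gzmb stays near 0 in NK, CD8 T and NKT cells.

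In CD8 T cells Prf1 and Gzma rose, and the level of Gzmb did not pass the test. Prf1 stood at 70.6 and 64.7 CPM among controls, 114.8 and 172.2 among pre-metastatic and 312.7 and 237.7 among macro-metastatic libraries. The 3 groups did not overlap. The log2 fold change was 2.01 ± 0.24 in macro-metastatic against control (adjusted p = 8.86e-05), in a gate where 19.7% of genes were called. Against pre-metastatic libraries it was 1.00 ± 0.23 (adjusted p = 0.0152), where 10.9% were called, and that call was lost without pre-metastatic library 1 (adjusted p = 0.248), without macro-metastatic library 1 (0.145) and after thinning to equal depth (0.129). Pre-metastatic against control gave 1.01 ± 0.25 and did not pass (adjusted p = 0.148), where 0.362% of genes did.

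Gzma in CD8 T cells stood at 435.0 and 226.4 CPM among controls, 728.3 and 1599 among pre-metastatic and 2423 and 1615 among macro-metastatic libraries. Both macro-metastatic libraries were above every other library, though only by a little over pre-metastatic library 2. The rise against control was 2.60 ± 0.35 on the log2 scale (adjusted p = 2.30e-04). The pre-metastatic change, 1.74 ± 0.35, missed the threshold (adjusted p = 0.0552), and macro-metastatic against pre-metastatic gave 0.86 ± 0.33 (adjusted p = 0.116). Both Prf1 and Gzma kept their call in macro-metastatic against control in all 18 other settings, with ranges of 1.76 to 2.22 and 1.30 to 3.16, where 1.30 came with gates taken from sub-clusters.

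More CD8 T cells carried a UMI of either gene. The share with Gzma was 7.49% and 6.54% among controls, 13.8% and 20.3% among pre-metastatic and 30.9% and 29.4% among macro-metastatic libraries. Since the macro-metastatic cells were deeper (medians of 3139 and 3292 UMIs, against 1751 and 1760 in control), cells were also thinned to 1000 UMIs, which gave 5.6% and 4.56%, 11.6% and 19.5%, and 25% and 22.4%. For Prf1 the shares were 11.7% and 10.8%, 18.7% and 23.3%, and 58.1% and 39.7%, and thinned they were 7.08% and 5.96%, 10.5% and 17.3%, and 26.5% and 17.9%. At equal depth the control and macro-metastatic libraries were still apart for both genes. CD8 T cells with none of the 8 genes made up 53% and 73.9% of control, 56.1% and 45.3% of pre-metastatic and 19.1% and 27.2% of macro-metastatic cells, without thinning.

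Markers of NK cells stood higher as well in the CD8 T gate. The 8 genes of the NK and ILC list summed to 263.4 and 330.2 CPM among controls, 473.2 and 533.8 among pre-metastatic and 796.1 and 608.9 among macro-metastatic libraries, with 6, 7 and 6 of the 8 detected and Klra4 and Klra8 at 0 in control and macro-metastatic CD8 T cells. In NK cells the same list summed to 3167 to 5609 CPM. Its part in the rise of Gzma and Prf1 was not tested.

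The makeup of the CD8 T gate moved as well. In control libraries 57.1% of the gated CD8 T cells lay in a cluster led by Lef1 and Tcf7, genes of naive and memory T cells, and 28.7% in a cluster led by Cd8a and Ccl5. In pre-metastatic libraries these shares were 37.7% and 36.4%, and in macro-metastatic libraries 16.4% and 66%. The comparison was therefore repeated in the cluster led by Cd8a alone, a choice made after the data were seen. That left 262 and 36 control, 84 and 113 pre-metastatic and 90 and 211 macro-metastatic cells. Gzma there stood at 675.0 and 269.0 CPM among controls, 876.1 and 2333 among pre-metastatic and 2666 and 1741 among macro-metastatic cells. Prf1 stood at 93 and 141.6, 280.2 and 262.1, and 400.9 and 289.0 CPM. Macro-metastatic against control gave log2 fold changes of 2.10 ± 0.40 for Gzma (adjusted p = 0.00203) and 1.76 ± 0.30 for Prf1 (adjusted p = 8.92e-04), where 14.5% of genes were called. Pre-metastatic against control, neither passed (1.58 ± 0.40 for Gzma, adjusted p = 0.0982, and 1.36 ± 0.32 for Prf1, adjusted p = 0.0643), where 0.743% of genes did. Between macro-metastatic and pre-metastatic cells of this cluster neither passed (adjusted p = 0.465 for Gzma and 0.412 for Prf1), where 6.03% did. The cells of the cluster were not alike across groups: Pdcd1, one of its leading genes, was at 719.6 and 649.5 CPM in macro-metastatic cells, against 3.96 and 127.4 CPM in control cells.

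**Figure D3:**
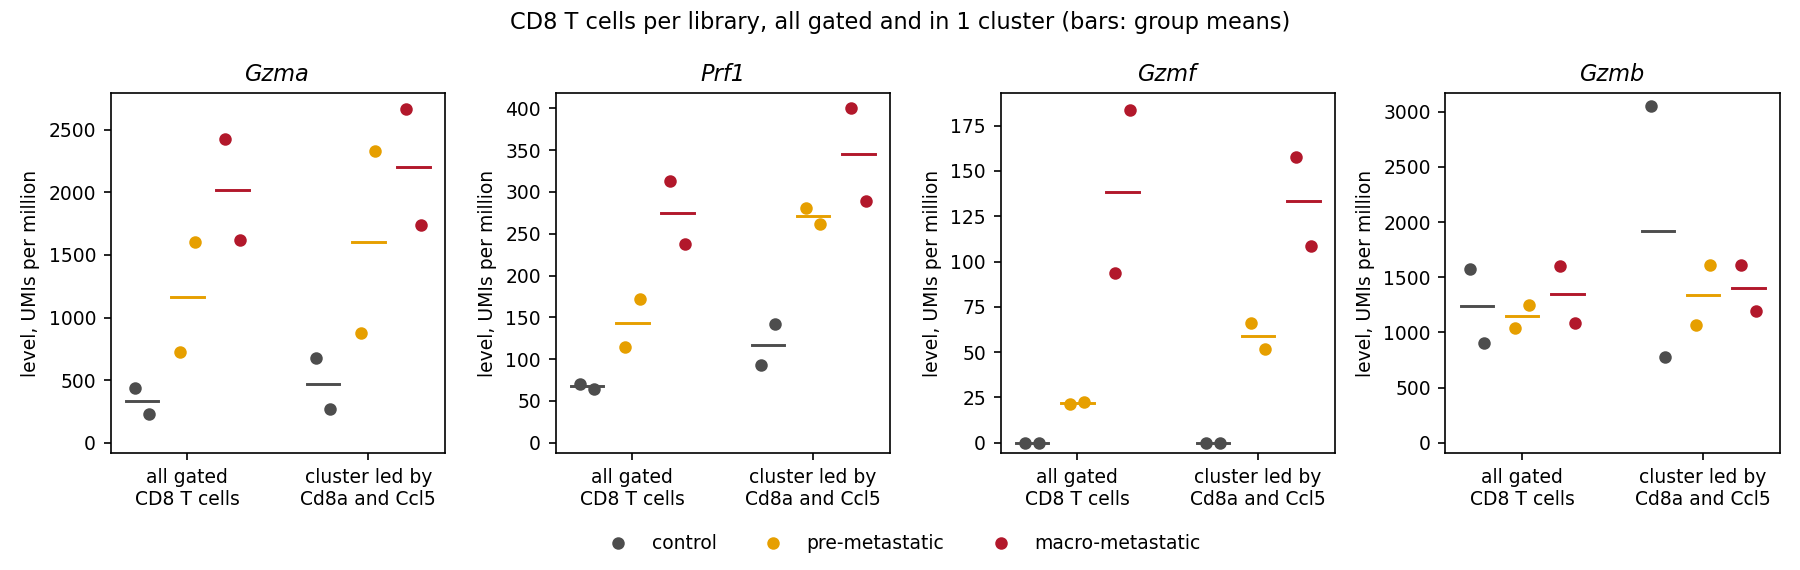
Level (CPM, linear axes) of Gzma, Prf1, Gzmf and Gzmb per library, for all gated CD8 T cells and for those in the cluster led by Cd8a and Ccl5, with a bar at each group's mean. Gzmf is at 0 in every control library, and the 2 control libraries lie far apart for Gzmb in the cluster, at 3052 and 778.7.

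Gzmb in CD8 T cells stood at 1572 and 902.2 CPM among controls, 1041 and 1249 among pre-metastatic and 1606 and 1088 among macro-metastatic libraries. The groups overlapped, and macro-metastatic against control gave a log2 fold change of 0.13 ± 0.25 (adjusted p = 0.75). Control library 1 held many Gzmb-bearing CD8 T cells (38.7%, against 16% in control library 2), so the controls stood further apart than the group means, 1347 ± 366.3 CPM in macro-metastatic and 1237 ± 473.5 CPM in control libraries (SD, n = 2 each). The share of cells with a Gzmb UMI was 38.7% and 16% among controls, 34.4% and 42.4% among pre-metastatic and 64.7% and 59.4% among macro-metastatic libraries. Thinned to equal depth it was 35% and 13.7%, 27.2% and 35%, and 48.5% and 44.6%. Both macro-metastatic libraries were above the other 4 in either form, while the CPM of the groups overlapped, and the shares were not tested. Gzmk in CD8 T cells had 72.6 and 37.5, 36.8 and 132.5, and 134.0 and 71.2 CPM in the 3 groups, which overlapped (macro-metastatic against control, 0.75 ± 0.46, adjusted p = 0.282). Of the 229 CD8 T cells with a Gzmk UMI, 79% also had Gzmb and 40.2% Gzma.

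Gzmf was absent from the UMIs of control CD8 T cells and present in the other groups. It gave 0 and 0 UMIs among controls, 15 and 12 among pre-metastatic and 46 and 227 among macro-metastatic libraries, that is 0 and 0, 21.3 and 22.7, and 93.4 and 183.5 CPM. No group overlapped another. If UMIs fell independently of each other, the counts of 0 in 734 and 306 control cells would allow at most 1.98 and 5.11 CPM. Gzmf UMIs were clumped, with a mean of 5.11 and 8.11 per Gzmf-bearing CD8 T cell in macro-metastatic libraries 1 and 2. With such clumping these CPM limits are too low. By cells, the upper Wilson limits on the share with Gzmf were 0.521% and 1.24% in control libraries 1 and 2. Against a floor of 3 counts over the control group, pooled Gzmf was 110.6-fold higher in macro-metastatic cells and 15.3-fold higher in pre-metastatic cells. These are ratios to that floor and not lower bounds. They leave out the spread between libraries and the clumping of UMIs in few cells. No p-value is given for Gzmf, since it passed the filter only through the groups in which it was high. The fitted log2 fold change of macro-metastatic over pre-metastatic cells was 2.78, and 1.21 within the cluster led by Cd8a. Standard errors, which derive from the same test, are left out for the same reason.

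Few cells carried these transcripts. Gzmf was seen in 4 and 2 pre-metastatic CD8 T cells (1.31% and 0.847%) and in 9 and 28 macro-metastatic ones (6.62%, 95% Wilson interval 3.52 to 12.1, and 8.75%, interval 6.12 to 12.4). At 1000 UMIs per cell the macro-metastatic shares were 4.55% and 4.49%. In B cells 1 of 3596 had a Gzmf UMI. The 5 cells with the most held 76.1% and 73.1% of the macro-metastatic Gzmf UMIs. The pre-metastatic values rest on 6 cells.

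Gzmd and Gzme were seen in CD8 T cells of the macro-metastatic libraries alone. Gzmd gave 6 and 58 UMIs in 2 and 7 macro-metastatic cells, and Gzme gave 1 and 63 UMIs in 1 and 6 cells. Neither had a UMI in the control or pre-metastatic CD8 T cells. Both were too sparse to be tested. With the libraries of a group pooled, each was 25.9-fold higher in macro-metastatic cells than the floor of 3 counts in control cells. This too is a ratio to that floor and not a lower bound. Gzme stood at 2.03 and 50.9 CPM in macro-metastatic libraries 1 and 2, so its ratio is a value of library 2. There 5 cells held 98.4% of its UMIs. Gzmd stood at 12.2 and 46.9 CPM. Of the 45 CD8 T cells with any of the 3, 9 carried at least 2 of them. Gzmc was rare in CD8 T cells, with 5 UMIs in all. Taken as 1 group over all 12587 T, NK and ILC cells, gated or not, Gzmd, Gzme and Gzmf were seen in 0 of 3484 and 0 of 2530 control cells, 5 of 2518 and 3 of 2050 pre-metastatic cells, and 29 of 583 and 56 of 1422 macro-metastatic cells. These 93 cells made up 4.97% and 3.94% of the macro-metastatic cells and 0.199% and 0.146% of the pre-metastatic cells, and 10 of them held 80.4% of the 2868 UMIs. Of the 93, 68 had a Cd8 UMI, 23 an Ncr1 UMI and 30 an Mki67 UMI, a marker of dividing cells. Another 26, some of them among these, met no gate because they carried markers of another lineage. The 25 of those in macro-metastatic libraries held 1805 of the UMIs, with a median of 9643 UMIs per cell. Whether such barcodes hold 1 cell or several was not tested.

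Most of the 45 CD8 T cells with Gzmd, Gzme or Gzmf also carried the classical members, and they were compared within the macro-metastatic libraries, which held 9 and 30 of them. In macro-metastatic libraries 1 and 2, 9 of the 9 and 27 of the 30 (90%) had a Gzmb UMI, against 62.2% and 56.2% of the other CD8 T cells. For Prf1 the shares were 77.8% and 73.3%, against 56.7% and 36.2%. For Gzma they were 44.4% and 50%, against 29.9% and 27.2%. The cells with the rare granzymes were also deeper, with medians of 4502 and 3938 UMIs, against 3082 and 3203 in the others, and the part of depth in these shares was not tested.

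**Figure D4:**
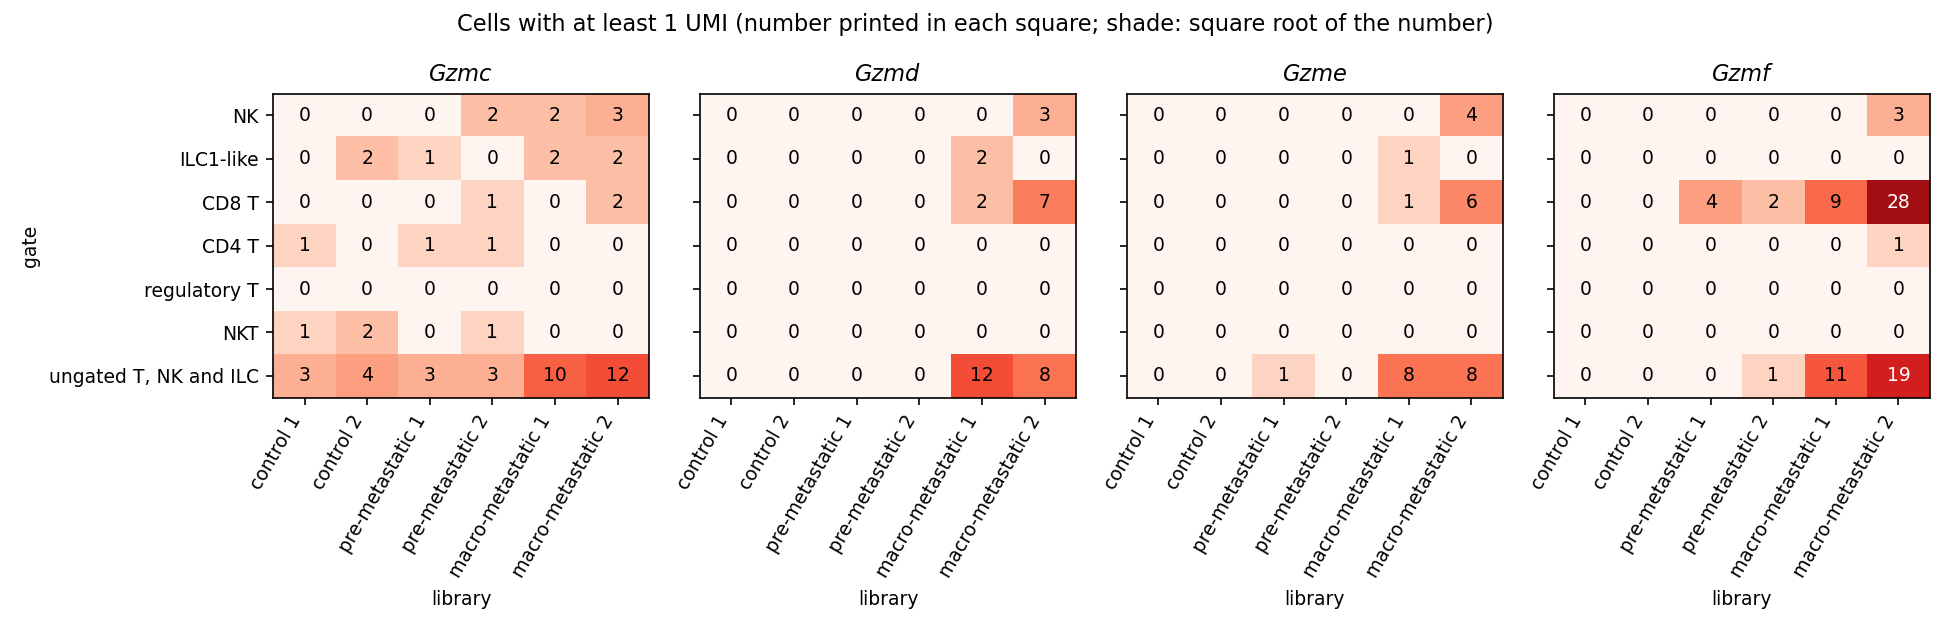
Number of cells with at least 1 UMI of Gzmc, Gzmd, Gzme and Gzmf in each library (columns) for the 6 gates and for T, NK and ILC cells that met no gate (rows); darker squares hold more cells. Gzmd, Gzme and Gzmf appear in no control library in these rows, and macro-metastatic CD8 T cells with Gzmf number 9 and 28.

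In NK cells the same genes came from a handful of cells in 1 library. Macro-metastatic library 2 gave 120 Gzmd, 46 Gzme, 74 Gzmf and 72 Gzmc UMIs, in 3, 4, 3 and 3 of its 85 NK cells, and the cell with the most held 73, 37, 59 and 64 of them. NK cells of the other 5 libraries gave none of Gzmd, Gzme or Gzmf, and 4 Gzmc UMIs. The 4 NK cells with Gzmd, Gzme or Gzmf had a median of 9745 UMIs, against 2458 in the other NK cells of that library. With 1 library of 18 NK cells beside it, this is a value of macro-metastatic library 2 and no difference between groups was tested. ILC1-like cells had 12 Gzmd and 13 Gzmc UMIs in macro-metastatic library 1, in 2 cells each. Regulatory T and NKT cells had no UMI of Gzmd, Gzme or Gzmf.

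Gzma was lower in NK cells of macro-metastatic libraries. It stood at 12612 and 10222 CPM among controls, 11496 and 10444 among pre-metastatic and 5630 and 7450 among macro-metastatic libraries. Both macro-metastatic values lay below the other 4. The log2 fold change against control was -0.68 ± 0.19 (adjusted p = 0.0144), in a gate where 9.99% of genes were called, and against pre-metastatic it was -0.60 ± 0.19 (adjusted p = 0.0395), where 9.07% were called. The first call was lost without macro-metastatic library 1, which holds 18 NK cells (-0.45, adjusted p = 0.162), without control library 1 (-0.53, adjusted p = 0.247) and after thinning (-0.56, adjusted p = 0.0858). The second was lost in 7 of 18 settings. Among the 18, the stricter gate for T cells and the cut of CD8 T cells to 1 cluster leave the NK cells unchanged. The share of NK cells with a Gzma UMI was 88.9% and 97.6% in macro-metastatic libraries, against 98.4% and 98% in control libraries.

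Prf1 and Gzmb in NK cells did not pass the test. Prf1 had 1338 and 1226, 1590 and 1374, and 741.6 and 1295 CPM in control, pre-metastatic and macro-metastatic NK cells (macro-metastatic against control, -0.12 ± 0.22, adjusted p = 0.814). Gzmb had 2447 and 1847, 2318 and 2170, and 1888 and 1842 CPM (-0.09 ± 0.20, adjusted p = 0.847). For both, the macro-metastatic values overlapped the control values. The 8 NK and ILC markers, which the gate partly uses, summed to 3489 and 3167 CPM in macro-metastatic NK cells, against 5609 and 5407 CPM in control NK cells, with all 8 detected in both. Their part in the lower Gzma was not tested. Gzmk in NK cells was at 0 to 42.3 CPM and was not tested.

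The difference between the 2 cell types was tested as an interaction. In macro-metastatic against control libraries, the change in CD8 T cells less the change in NK cells was 3.22 ± 0.47 on the log2 scale for Gzma (adjusted p = 2.44e-05) and 2.12 ± 0.34 for Prf1 (adjusted p = 6.13e-05), where 2.79% of 5550 genes differed. For Gzmb it was 0.15 ± 0.39 (adjusted p = 0.925). In pre-metastatic against control libraries none of the 3 passed, with 1.75 ± 0.47 for Gzma (adjusted p = 0.224) and 0.82 ± 0.34 for Prf1 (adjusted p = 0.865), where 0.126% of genes did and where edgeR gave an unadjusted p under 0.05 for these 2. DESeq2 gave 3.19 for the Gzma interaction, with an adjusted p of 0.0677.

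ILC1-like cells showed a Gzma rise that came from 1 library. Gzma stood at 1420 and 1456 CPM among controls, 2383 and 2654 among pre-metastatic and 7607 and 1489 among macro-metastatic libraries. Macro-metastatic library 2 was at the control level. In macro-metastatic library 1, 1 of 21 cells held 260 of the 646 UMIs and the top 5 held 85%. The fit gave 1.78 ± 0.39 (adjusted p = 0.00261), where 6.25% of genes were called, but 0.12 without that library (adjusted p = 0.904), and DESeq2 gave an adjusted p of 0.493. Gzmb (1211 and 1866, 2188 and 2287, 2508 and 1079 CPM) and Prf1 (306.3 and 318.5, 301.7 and 459.0, 577.0 and 312.2 CPM) in the 3 groups did not pass (macro-metastatic against control, adjusted p = 0.622 and 0.325).

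Gzmb rose in regulatory T cells. Regulatory T cells, marked by Foxp3, restrain other T cells, and granzyme B is known in activated ones. Gzmb stood at 20.8 and 79.9 CPM among controls, 107.2 and 197.0 among pre-metastatic and 794.2 and 187.7 among macro-metastatic libraries, from 5 to 54 UMIs per library. Each pre-metastatic and macro-metastatic value lay above both controls, and the pre-metastatic and macro-metastatic groups overlapped. The log2 fold change was 3.26 ± 0.61 in macro-metastatic against control (adjusted p = 0.00193), where 3.62% of genes were called, and 1.77 ± 0.64 in pre-metastatic against control (adjusted p = 0.914). The first was 2.13 without macro-metastatic library 1, 4.13 without macro-metastatic library 2, 2.42 without control library 1 and 4.28 without control library 2, and it passed the test each time. DESeq2 gave an adjusted p of 0.103 for it. With gates from sub-clusters it was 0.42 (adjusted p = 0.469), where 1 of the 2 sub-clusters named regulatory T held 141 cells of the CD8 T gate and 43 of the regulatory T gate.

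By cells, 3 and 4 control, 10 and 12 pre-metastatic and 10 and 11 macro-metastatic regulatory T cells had a Gzmb UMI, or 3% and 7.84%, 14.9% and 16.2%, and 41.7% and 19.3%. Thinned to equal depth these were 1.09% and 2.13%, 8.2% and 8.45%, and 25% and 14%, again with all 4 later libraries above both controls. In macro-metastatic library 1, 5 cells held 90.7% of the UMIs. Gzma, Gzmk, Prf1 and the rest were at or near 0, with 10, 3 and 7 UMIs in all for the first 3. The NK and ILC list summed to 0 and 36.3, 13.4 and 28.1, and 73.5 and 42.7 CPM in the 3 groups. The list of 9 monocyte and macrophage markers summed to 403.1 and 602.8, 924.8 and 539.5, and 1780 and 840.5 CPM, with 7 detected in each group, and was highest in macro-metastatic library 1, where Gzmb was highest too. The part of either list in Gzmb was not tested. Klrb1c, Klre1, Klra4 and Klra8 were at 0 in regulatory T cells of every group.

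CD4 T cells had 1 call and NKT cells none. In CD4 T cells Gzma was called lower in macro-metastatic against control (-2.95 ± 0.86, adjusted p = 0.0271), where 12.2% of genes were called. This rests on 110 and 34 UMIs among controls, 5 and 46 among pre-metastatic and 3 and 3 among macro-metastatic libraries, of which 1 control cell gave 82. The shares of cells, 0.909% to 4%, stood against 0.973% of B cells, and the call was lost without control library 1 (adjusted p = 0.105), without macro-metastatic library 2 (0.504), with DESeq2 (0.438), with thinning (0.555) and with 2 other settings. Gzmb, Prf1 and Gzmk in CD4 T cells had adjusted p-values of 0.331, 0.795 and 0.602. In NKT cells Gzmb stood at 230.9 and 431.5, 424.6 and 354.8, and 579.9 and 226.6 CPM in the 3 groups, which overlapped (adjusted p = 0.81). Prf1 in NKT cells, at 52.9 and 50.8, 33.2 and 29.2, and 0 and 19.4 CPM, did not pass either (macro-metastatic against control, -1.87 ± 0.75, adjusted p = 0.167), where 5.75% of genes did.

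Other genes of the pathway were read from 4 lists, given by counts beside all genes. These lists too were chosen with earlier results of these data known. In CD8 T cells all 5 tested genes of the list of granzyme inhibitors rose in macro-metastatic against control, with a median log2 fold change of 2.74, against a median of -0.02 over 7466 genes, of which 881 rose and 590 fell. Serpinb9, the inhibitor of granzyme B that protects the killer cell itself, rose by 2.74 ± 0.24 (adjusted p = 7.78e-06), its paralog Serpinb9b by 5.11 ± 0.56 (4.35e-05) and Serpinb6b by 2.12 ± 0.25 (7.59e-05). The other 2 were Serpina3g (4.91) and Serpinb6a (2.18), named to complete the count. Whether each of the 5 inhibits a granzyme was not tested, so the counts are of list members. In pre-metastatic against control 3 of the 5 had risen, the same Serpinb9 (1.87, adjusted p = 0.00279), Serpinb6b (1.46, 0.0239) and Serpinb9b (3.69, 0.0246), where 26 genes rose and 1 fell. Serpinb9 and Serpinb9b are paralogs, as are Serpinb6a and Serpinb6b, so UMIs may be split between them.

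Of the granule and death ligand list, 5 of 13 tested genes rose in macro-metastatic CD8 T cells and none fell, with a median of 0.58. To complete the count, they were Nkg7 (1.28), Ctsw (1.25), Cst7 (1.13), Stx11 (1.83) and Lamp2 (0.81), while the death ligands Fasl and Tnfsf10 did not pass. Of 6 effector cytokines and chemokines Ccl5 alone rose (1.50), with a list median of -0.33, and Ifng did not pass. Of 17 regulators of effector state 6 rose and 2 fell. Bhlhe40, a transcription factor of activated T cells, rose by 2.97 ± 0.22 (adjusted p = 2.53e-06), and Lef1 and Tcf7, which lead the cluster with most control cells, fell by 2.21 and 1.82. In macro-metastatic against pre-metastatic CD8 T cells 4 of the 5 inhibitors and 4 of 13 granule genes rose, beside 522 genes that rose and 293 that fell of all 7466, among them Serpina3g (3.96 ± 0.59, adjusted p = 9.14e-04) and Ctsw (1.26, adjusted p = 0.00263).

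**Figure D5:**
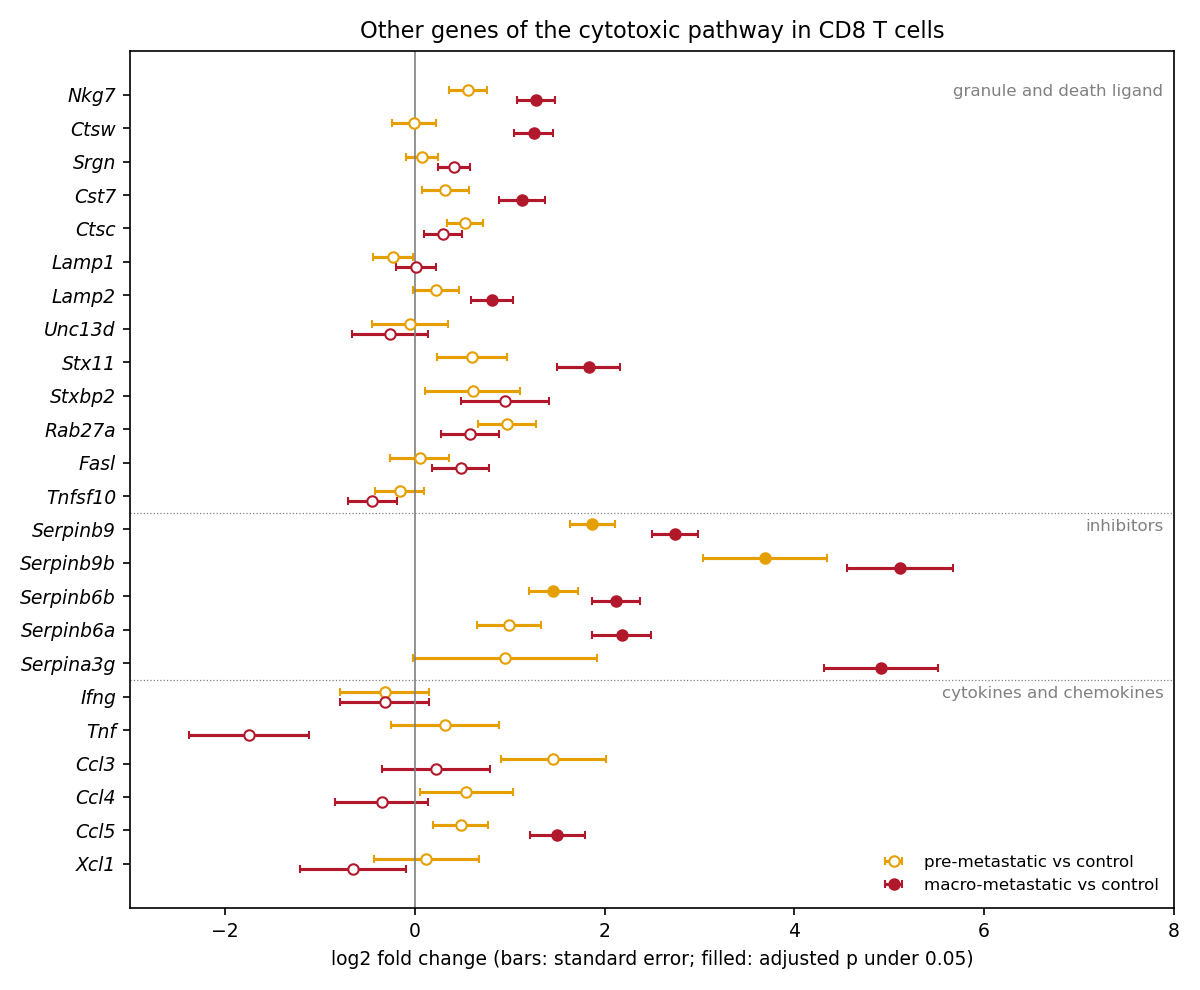
Log2 fold change (x axis, bars for the standard error) of the granule and death ligand genes, granzyme inhibitors and effector cytokines and chemokines tested in CD8 T cells, for pre-metastatic (orange) and macro-metastatic (red) against control libraries; filled points had an adjusted p under 0.05. All 5 genes of the inhibitor list lie right of 0 and are filled in macro-metastatic cells, at 2.12 to 5.11.

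Genes of these lists were called in the other gates too. In NK cells of macro-metastatic against control libraries, Xcl1, a chemokine for dendritic cells, rose by 2.74 ± 0.36 (adjusted p = 2.30e-07). Srgn, the proteoglycan that binds granzymes in the granule, rose by 1.37 ± 0.20 (2.22e-06). The regulators of effector state were split: Tbx21 (1.49), Bhlhe40 (1.12) and Foxo1 (1.06) rose, while Zeb2 (-1.16) and Prdm1 (-1.35) fell. Foxo1, Zeb2 and Prdm1 are named to show both directions. Serpina3g of the inhibitor list rose as well (2.94). Named to complete the count, Ctsc, the protease that activates progranzymes, fell by 1.06 (adjusted p = 0.0109), so that 1 of 10 granule genes rose and 1 fell, where 359 of 4807 genes rose and 121 fell. In ILC1-like cells the chemokines Ccl3 (1.49) and Ccl4 (1.34), Serpinb6b (1.17) and Bhlhe40 (1.39) rose and the death ligand Tnfsf10 fell (-1.48, adjusted p = 0.0366). That made 1 of 9 granule genes that fell, and 2 of 3 inhibitors, 2 of 6 cytokines and chemokines and 2 of 14 regulators that rose, where 168 of 3278 genes rose and 37 fell. Regulatory T cells rose in Klrg1 (3.39 ± 0.49, adjusted p = 1.91e-04), Stx11 (2.30) and Bhlhe40 (1.89) and fell in Tcf7 (-2.38), where 124 of 4084 genes rose and 24 fell. The other list genes called there were Id2 (2.04) and Srgn (1.00), which rose, and Lef1 (-1.22), which fell. In CD4 T cells Irf4 (2.34), Bhlhe40 (2.19), Zeb2 (1.79) and Srgn (1.00) rose, while Xcl1 (-1.81, adjusted p = 0.0279) and Ifng (-1.8, adjusted p = 0.0293) fell. That made 2 of 12 granule genes and 6 of 17 regulators that rose, 2 of 6 cytokines and chemokines that fell and 0 of 4 inhibitors, where 596 of 7177 genes rose and 282 fell. In NKT cells none of 13 granule genes, 4 inhibitors and 7 cytokines and chemokines was called by edgeR in macro-metastatic against control. Of 16 regulators 4 rose and 2 fell, where 260 of 6351 genes rose and 105 fell. Against pre-metastatic libraries Tnfsf10 fell in NKT cells by 1.8 on the log2 scale (adjusted p = 0.0412).

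Across 19 cell classes and gates, the genes whose mean level ran most like that of a member were found by Pearson's r of log2(CPM + 10), as a description over classes that share libraries. For Prf1 they were Klre1 (0.981), Klrc3 and Heatr9, for Gzma Heatr9 (0.968), Myo16 and Klri2, and for Gzmb Sytl3 (0.974), Cst7 and Rab37. For Gzmk they were Crtam (0.964), Gm44174 and Klrh1, and for Gzmf Slc17a6 (0.902), Crtam and Gm44174. Gzmd had Heatr9 (0.979), Myo16 and Fhl2, Gzme had Eomes (0.968), Myo16 and Serpinb9b, and Gzmc had Cma1 (0.906), Sytl3 and Spry2. Klre1 and Eomes are used by the gates.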

How the data were processed

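Single-cell RNA was measured in 6 whole-liver libraries, 2 per group. The authors deposited raw UMI counts for each gene in each barcode. Per the submitters' processing notes, CASAVA 1.8, UMI-tools and the mm10 build were used, while the sources used here name no aligner or annotation. Barcodes with at least 300 genes and at most 25% mitochondrial UMIs were kept (66935 of 71908), and doublets predicted by Scrublet (score above 0.292, the median of the thresholds of the 6 libraries) were removed. Cells were clustered with scanpy 1.11.5 and leidenalg 0.10.2 without the granzyme and perforin genes. Gates were set per cell from marker UMIs within the T, NK and ILC clusters, and cells carrying markers of another lineage or of several gates were left out. Counts were summed per gate and library.

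Sums were tested with edgeR 4.0.16 (R 4.3.3, quasi-likelihood, TMM) over all genes passing the filter on low counts, with Benjamini-Hochberg adjustment and a threshold of 0.05. The same numbers in different groups did not pair the libraries: deviations of same-numbered libraries correlated between -0.08 and 0.15. With 2 libraries a group, exact permutation would give at best p = 0.333, so none was run on single values. Depth was 41914149 to 90819751 UMIs per library, and Wilson intervals at 95% cover counting error only. Fits were tested on simulated data. Alternatives were DESeq2 1.42.0, RLE factors or none, no filter, GC correction, the replicate block, stricter and sub-cluster gates, doublets kept, thinning to 1000 UMIs and leaving out each library. The genes named were all 8 members, up to 4 called list genes with the smallest adjusted p per gate and comparison, and the 3 genes most like each member with at least 100 UMIs; others complete a count or serve as checks. The members and lists were chosen with earlier results of these data known.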

Additional observations from a re-analysis of the deposited data

Results flagged for a closer look

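The change of Gzma between macro-metastatic and control libraries differed between CD8 T cells and NK cells by 3.22 on the log2 scale in the test of the interaction, and that of Prf1 by 2.12. The values of each library are in the report. Gzmb showed no such difference that passed the test (0.15, adjusted p = 0.925, edgeR).

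T, NK and ILC cells that met no gate were not compared between groups, and they held most UMIs of the rare granzymes. Gzmd, Gzme and Gzmf together gave 0 UMIs in 2995 such control cells, 2 UMIs in 2 of 2397 pre-metastatic cells and 2183 UMIs in 39 of 1017 macro-metastatic cells. Of these macro-metastatic cells 25, with 1805 of the UMIs, had been left out for carrying markers of another lineage. Their median was 9643 UMIs per cell, against 3424 in 313 macro-metastatic cells left out for the same reason that held none of the 3 genes. Of the 25 cells, 17 had a UMI of Csf1r, 15 of Clec4f and 15 of Stab2, and 0 had Cd79a, while 17 had a Cd3 gene and 16 a Cd8 gene. Whether these barcodes hold 1 cell or several was not tested.

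Basophils and mast cells, 479 cells outside the lymphocyte gates, carried Gzmb at 409.1 and 815.8 CPM among controls, 364.5 and 531.5 among pre-metastatic and 1726 and 3340 among macro-metastatic libraries, whose mean was 2533 CPM. The share of these cells with a Gzmb UMI was 20.5% and 15.7%, 34.8% and 30.4%, and 59% and 75.4%. The difference was not tested.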

How the results depend on the processing

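Of 300 alternative values for single results, 266 kept their direction and side of the threshold, 33 lost the call and 1 reversed: Gzmb in CD8 T against NK cells, 0.04 (adjusted p = 0.956) with sub-cluster gates. The 7 calls in macro-metastatic against control became 15 with no filter, 4 with DESeq2 and 18 with sub-cluster gates, and 7 to 13 when 1 library was left out. The 1 call in pre-metastatic against control became 3 with no filter, 2 with no scaling factor, 2 with GC correction, 2 with doublets kept, and 1 to 2 without 1 library. The 3 calls in macro-metastatic against pre-metastatic became 15 with no filter, 19 with sub-cluster gates, 1 after thinning and 6 to 12 without 1 library. They became 1 when CD8 T cells were taken from the cluster led by Cd8a alone, an alternative chosen after seeing the data. That 1 was Gzma in NK cells, whose fit this setting does not change, and no member passed within the cluster itself. CD8 T against NK cells gave 3 differing members, 7 with no filter and 2 to 4 without 1 library. ILC1-like against NK cells gave 2, 6 with no filter and 2 to 3 without 1 library; sub-cluster gates gave no value there. The interaction gave 2, 1 with DESeq2 and 2 without any 1 library. The filter asks for fewer libraries when 1 is left out, so it then admits genes seen in 1 library. The 266 kept values include those of Gzmf in CD8 T cells, which passed the filter only through the groups where it was high. Those values support nothing by themselves. The 266 also include fits that a setting leaves unchanged, which had to keep their call. Taking CD8 T cells from 1 cluster alters no other gate, and the stricter T gate alters neither NK nor ILC1-like cells. Shares of all genes called under each setting are not given beside the counts of calls in this paragraph. Those counts are therefore no result about the members. With the replicate block the 3 comparisons gave 7, 1 and 4 calls, and it changed no call among 11 single results. Thinning moved 23 of 36 shares of cells by over 1 SD, and sub-cluster gates 18 of 36. Few cells limit the rare granzymes: macro-metastatic library 1 held 18 NK and 24 regulatory T cells.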

Other observations

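T cells with a Cd3 gene and Trdc, the delta chain of the T cell receptor, met none of the 6 gates and were high in Gzmb. Over 757 such cells Gzmb stood at 3380 CPM and Gzma at 1968 CPM. By group, summed over both libraries, Gzmb was at 4006 CPM in 353 control, 3548 CPM in 307 pre-metastatic and 1652 CPM in 97 macro-metastatic cells, and Gzma was at 1518, 2482 and 2036 CPM. These are pooled values with no test.

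The 364 cells with equal evidence for NK and ILC1 had Gzma at 9457 CPM in control, 8808 in pre-metastatic and 5823 in macro-metastatic cells. These too are pooled over libraries and were not tested. Gzmc, rare in lymphocytes, was also seen in basophils and mast cells, which held 9.06% of its UMIs: 0 and 0 UMIs among controls, 12 and 3 among pre-metastatic and 38 and 29 among macro-metastatic libraries.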
